A study of Mus musculus with 4 samples.

Results

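Cells make NAD from the amino acid tryptophan along the kynurenine pathway, and the liver and the kidney proximal tubule are the tissues best known for carrying it. Tdo2 or an Ido enzyme opens the tryptophan ring, Afmid, Kmo, Kynu and Haao carry the product to an unstable semialdehyde, and this either closes by itself to quinolinic acid or is decarboxylated by Acmsd. Qprt takes quinolinic acid into the nucleotide pool, Nmnat1 and Nadsyn1 complete NAD, and Nampt feeds the same pool from recycled nicotinamide. The 10 genes described here are Afmid, Kmo, Kynu, Haao, Acmsd, Aadat, Qprt, Nadsyn1, Nmnat1 and Nampt, out of 32285 genes counted. They were listed by symbol for their place in this pathway and were selected on their pooled levels by library in the proximal tubule and other cell classes of these same data, so the levels and differences below are descriptions without a test.

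The study profiled single cells of whole kidneys from male mice by droplet-based 3′ RNA-seq, to ask how loss of the glucose transporter SGLT2 alters the kidney on a high-fat diet. All animals carried the C3H strain label, started their diet at 10 weeks of age, kept it for 8 weeks and were 18 weeks old at harvest. WT mice had intact Slc5a2, the SGLT2 gene, and SP (Sweet Pee) mice were homozygous for a missense allele of it throughout the body. Each genotype received a normal diet (ND) or a high-fat diet (HFD, 60% of calories from fat), which gave 4 libraries, WT-ND and WT-HFD for wild-type and SP-ND and SP-HFD for mutant mice. Where 4 values are given in order, the order is WT-ND, WT-HFD, SP-ND, SP-HFD. There was 1 library per condition and the number of mice behind a library is not given in the sources used here, so mouse-to-mouse variation, diet, genotype and library cannot be told apart. No model with diet and genotype as terms was fitted to the 4 libraries. Every interval in the text is a 95% interval for counting error only.

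The libraries held 90728590 to 115117649 unique molecular identifiers (UMIs, 1 per captured RNA molecule). After filtering, 32280 cells remained, and pairs of libraries shared 8 to 36 barcodes among them. Early proximal tubule-like cells numbered 1346 in WT-ND and 575 in WT-HFD, against 608 in SP-ND and 385 in SP-HFD, and late proximal tubule-like cells 742, 271, 332 and 239. Levels are given as CPM, the UMIs of a gene scaled in the usual way by the total UMIs of the pooled cells. In these cells 10 general proximal tubule markers summed to 12800 to 17530 CPM, against at most 3544 CPM in any other named class. These markers were among those that named the clusters, so the contrast is not an independent check. Nor does it bear on the segment, which was set by Slc5a12 and Slc7a13. The targeted gene Slc5a2 was read at 530.5 CPM in early cells of WT-ND, 403.1 CPM in WT-HFD, 93.55 CPM in SP-ND and 146.7 CPM in SP-HFD. It was thus lower in both SP libraries, although a missense allele need not lower its RNA. Some clusters came mostly from 1 library. An unnamed cluster had 1044 of its 1097 cells in WT-HFD, a proximal tubule sub-cluster without an assigned segment had 352 of 373 cells in WT-HFD, and a late sub-cluster had 54 of 80 cells in SP-HFD. The first 2 are outside the early and late groups and are described separately below.

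The 10 genes lie on separate chromosomes for the most part, and the positions below are those of the GENCODE vM21 annotation (mm10). The early steps are Afmid at chr11:117825924-117839908, Kmo at chr1:175620381-175662116, Kynu at chr2:43555329-43682715 and Haao at chr17:83831156-83847963. Acmsd is at chr1:127729413-127767978 and Aadat at chr8:60505932-60545677. The NAD-forming genes are Qprt at chr7:127107114-127122226, Nadsyn1 at chr7:143795584-143822849, Nmnat1 at chr4:149467572-149485202 and Nampt at chr12:32819545-32853349. All 10 are annotated as protein coding, and the values are sums over whole genes. Afmid and Nampt each overlap another annotated gene on the same strand, Gm20708 and Gdap10, so their counts could include or lack reads of these neighbors.

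The start regions of the members differed in base composition, and 2 of them are shown because they belong to a gene with a higher level in both HFD libraries of each segment (Haao) and to the member read across cell classes (Nampt). They are the RefSeq stretches (GRCm38.p6) upstream of the RefSeq start, up to 250 bases, cut where an exon of a protein-coding GENCODE transcript begins. The GENCODE spans given above begin further upstream for both genes, so the stretches lie inside those spans and outside the exons of their coding transcripts. Capitals mark each CG dinucleotide.
Haao (chr17:83846813-83847040, minus strand): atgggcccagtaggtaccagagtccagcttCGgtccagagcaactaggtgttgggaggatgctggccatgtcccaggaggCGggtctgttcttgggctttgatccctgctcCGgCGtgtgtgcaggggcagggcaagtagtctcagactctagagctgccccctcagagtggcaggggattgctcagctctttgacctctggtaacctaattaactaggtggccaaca
Nampt (chr12:32820085-32820334, plus strand): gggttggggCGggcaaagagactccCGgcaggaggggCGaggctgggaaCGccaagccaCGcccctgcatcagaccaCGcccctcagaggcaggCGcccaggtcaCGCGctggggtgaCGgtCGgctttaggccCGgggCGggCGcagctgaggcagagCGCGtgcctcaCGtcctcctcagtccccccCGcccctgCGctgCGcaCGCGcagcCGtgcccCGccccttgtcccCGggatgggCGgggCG

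RefSeq promoters are described for 8 of the 10 members, Nmnat1 with 2 of them, and Kynu had no entry. Within 250 bases upstream, Kmo held 5 CG dinucleotides, against a median of 6 over 32851 promoters. Haao and Qprt held 6 each, Aadat 13 and Afmid 15. The members read across cell classes held more, with 23 in Nadsyn1, 24 and 23 in the 2 listed promoters of Nmnat1 and 27 in Nampt, which exceeded 91.4% of all promoters. The 4 motifs below were searched on both strands, with no overlap between the matches found. The HNF1 element GTTAAT or its reverse occurs in 6.43% of all promoters and was present once among the members, as ATTAAC starting 41 bases before the Haao start. The HNF4 core CAAAGTCC occurs in 1.2% of promoters and was present once, in Aadat at 71 bases before the start. A direct repeat bound by nuclear receptors, in 0.56% of promoters, and the E-box CACGTG, in 6.02%, had no match in these windows.

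In the proximal tubule, the members separated by diet in opposite directions, and the plot of levels by library shows that this pattern recurred in both genotypes and both segments. Of the members, 4 were lower in the HFD library than in the ND library in all 4 diet comparisons: Acmsd, Kynu, Qprt and Kmo. Another 3 were higher in all 4 (Afmid, Haao and Nampt), although the Nampt interval in late SP cells held 0. The other 3 (Aadat, Nadsyn1 and Nmnat1) had ratios of both signs. For Aadat and Nadsyn1 only the early WT ratio was below 0, at -0.004 and -0.05 on the log2 scale, with intervals holding 0. Among 4176 genes with at least 20 CPM in 1 of the 2 libraries of every comparison, 26.6% were lower and 27.4% higher in all 4, beside 3 and 3 of the 7 members that met that level.

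**Figure D1:**
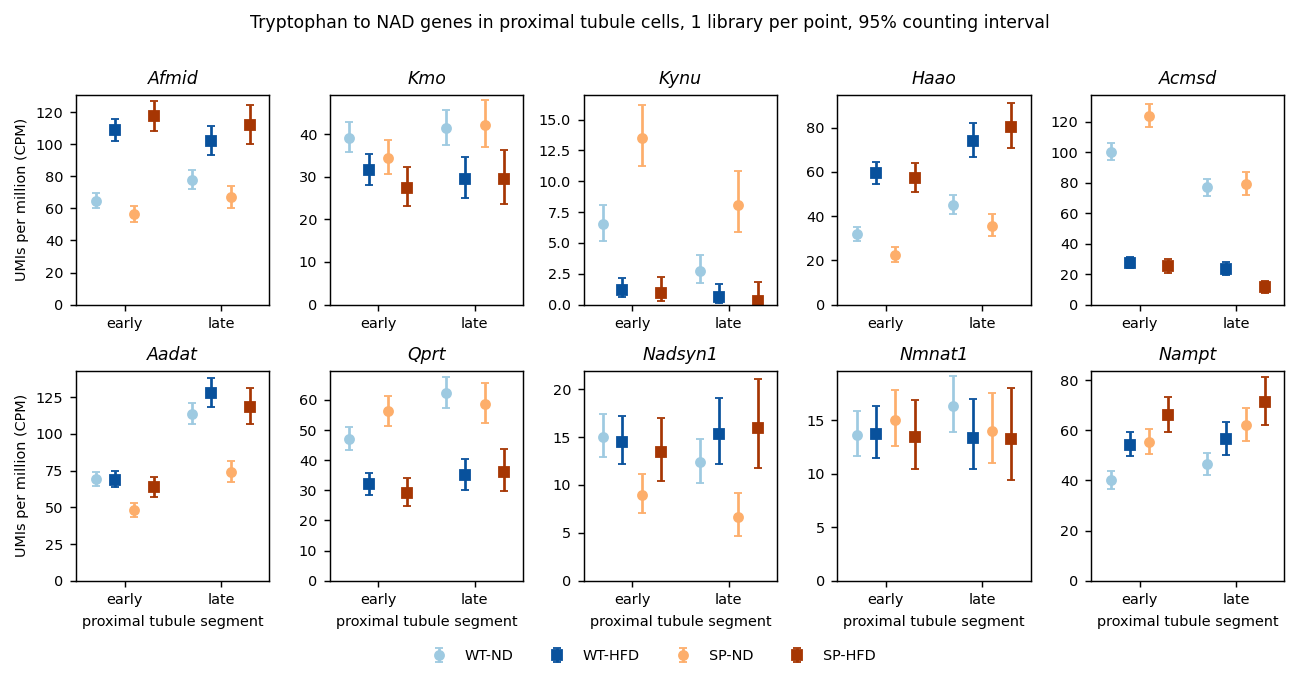
Level of each member in early and late proximal tubule-like cells, in CPM on a linear axis from 0 that differs between panels; each point is 1 library and bars are exact Poisson 95% counting intervals. Both HFD libraries (squares) lie below both ND libraries (circles) for Acmsd, Kynu, Qprt and Kmo and above them for Afmid and Haao, in each segment.

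Acmsd, the decarboxylase that diverts carbon away from quinolinic acid, had the widest diet difference of the 7 members with at least 20 CPM in 1 of the 2 libraries compared, in each of the 4 diet comparisons. In early cells its level was 100.3 CPM in WT-ND (1234 UMIs), 27.52 CPM in WT-HFD (256 UMIs), 123.8 CPM in SP-ND (1080 UMIs) and 25.09 CPM in SP-HFD (131 UMIs). In late cells it was 76.88, 23.3, 79.33 and 11.26 CPM in the same order. Both ND libraries lay above both HFD libraries in each segment. The HFD level in early cells was 3.64-fold lower in WT (log2 ratio -1.87, interval -2.07 to -1.67) and 4.93-fold lower in SP (-2.30, -2.58 to -2.04). In late cells it was 3.3-fold lower in WT (-1.72, -2.01 to -1.44) and 7.05-fold lower in SP (-2.82, -3.37 to -2.31). Counted from the most negative ratio, Acmsd was number 7 of 4711 genes in early WT cells, 12 of 4920 in early SP cells, 15 of 4445 in late WT cells and 13 of 4787 in late SP cells.

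Kynu, the kynureninase that cleaves the side chain before Haao acts, was read at low levels and was below 20 CPM in every library. Early cells held 80 UMIs in WT-ND (6.503 CPM), 11 in WT-HFD (1.183 CPM), 118 in SP-ND (13.53 CPM) and 5 in SP-HFD (0.9577 CPM). Late cells held 26, 3, 44 and 1 UMIs. The HFD library was thus lower in each pair, with log2 ratios in early cells of -2.46 in WT (interval -3.52 to -1.54) and -3.82 in SP (-5.47 to -2.56). In late cells the ratios were -2.24 (-4.60 to -0.53) and -4.61 (-9.95 to -2.06), the last resting on 1 UMI. Kynu was also the member with the widest gap between genotypes on ND, 2.08-fold higher in SP-ND than in WT-ND in early cells and 2.95-fold in late cells.

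Qprt commits quinolinic acid to the NAD route. Its level in early cells was 46.98 CPM in WT-ND, 32.04 CPM in WT-HFD, 56.17 CPM in SP-ND and 29.11 CPM in SP-HFD. Late cells had 62.22, 34.94, 58.72 and 36.09 CPM. The HFD library was lower by 1.47-fold in early WT cells, 1.93-fold in early SP cells, 1.78-fold in late WT cells and 1.63-fold in late SP cells, with every interval below 0 on the log2 scale. Kmo, the hydroxylase of the outer mitochondrial membrane, differed less, being 1.24-fold lower in early WT cells, 1.26-fold in early SP cells, 1.4-fold in late WT cells and 1.43-fold in late SP cells. Its highest level was 42.15 CPM, in late cells of SP-ND, and its lowest 27.39 CPM, in early cells of SP-HFD.

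Within a library, Acmsd and Qprt can be set side by side as UMIs of the 2 enzymes that lie at the branch, whose ratio is compared only across libraries. In early cells there were 2.13 Acmsd UMIs per Qprt UMI in WT-ND (interval 1.93 to 2.36) and 2.2 in SP-ND (1.98 to 2.46), but 0.859 in WT-HFD (0.724 to 1.02) and 0.862 in SP-HFD (0.677 to 1.1). In late cells the ratio was 1.24, 0.667, 1.35 and 0.312. The WT and SP libraries of a diet had overlapping intervals in early cells, and the 2 diets did not overlap in either segment.

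Afmid and Haao went the other way. Afmid, the formamidase that releases kynurenine, was read in early cells at 64.79 CPM in WT-ND, 108.8 CPM in WT-HFD, 56.4 CPM in SP-ND and 117.4 CPM in SP-HFD. The HFD library was 1.68-fold higher in WT (log2 0.75, interval 0.61 to 0.88) and 2.08-fold higher in SP (1.06, 0.88 to 1.23). In late cells the corresponding folds were 1.31 and 1.67. Haao, the dioxygenase that opens the hydroxyanthranilate ring, was read in early cells at 31.78, 59.34, 22.47 and 57.08 CPM, again with both HFD libraries above both ND libraries. Its HFD level was 1.87-fold higher in early WT cells (log2 0.90, 0.71 to 1.09) and 2.54-fold in early SP cells (1.35, 1.08 to 1.61), and 1.64- and 2.25-fold higher in late cells. Kynu and Haao, which act in succession, thus had diet ratios of opposite sign, as the plot of diet ratios shows.

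**Figure D2:**
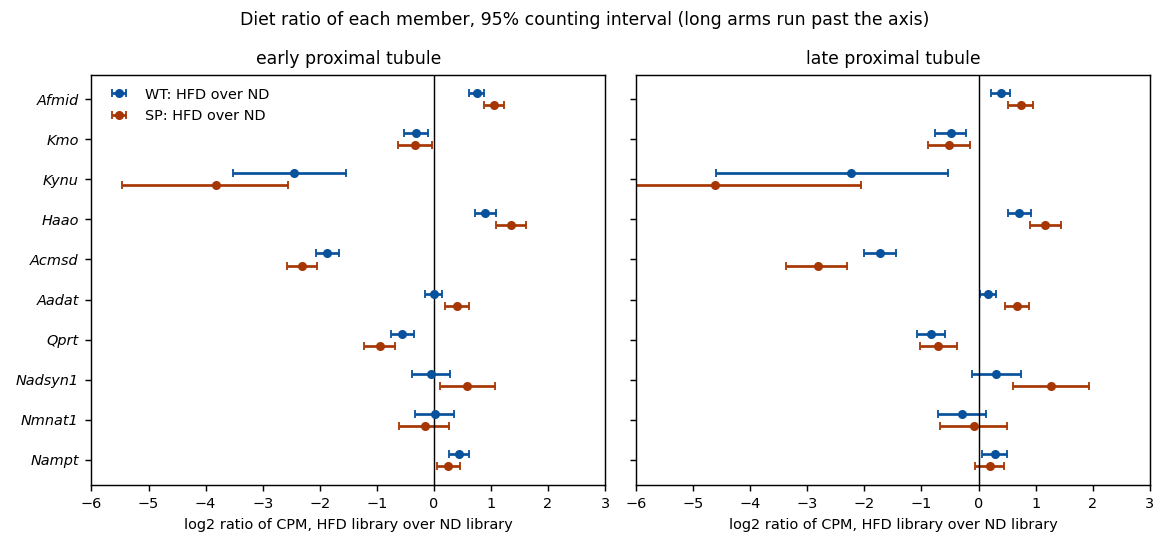
Log2 ratio of CPM, HFD library over ND library, for each member (rows) in early (left) and late (right) proximal tubule-like cells; points are WT (blue) and SP (brown), bars are exact conditional binomial 95% counting intervals, and 1 bar runs past the axis. Acmsd, Kynu, Qprt and Kmo lie left of 0 and Afmid, Haao and Nampt right of 0 in both panels.

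Members of at least 20 CPM that differed by at least 1.5-fold were counted beside the share of all genes at that level. The members were chosen on these same data, so their counts are a description only. In WT early cells 2 of the 7 members at that level were higher (6.56% of all genes) and 1 lower (4.16%). In SP early cells 2 were higher (6.99%) and 2 lower (7.58%). In late cells 1 was higher (4.81%) and 2 lower (5.08%) in WT, and 3 were higher (9.73%) and 2 lower (7.46%) in SP. Since members moved both ways, the median log2 ratio over all 10 stayed near 0, at -0.03 in early WT, 0.04 in early SP, -0.06 in late WT and 0.06 in late SP, with medians of all genes from -0.04 to 0.04. Past 1.5-fold in both genotypes were Afmid and Haao (higher) and Acmsd (lower) in early cells, and Haao (higher) with Acmsd and Qprt (lower) in late cells. Of all genes, 4.14% were higher and 2.79% lower in both genotypes in early cells, and 3.47% and 2.87% in late cells.

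Of the remaining members, Nampt and Nmnat1 were closer to even by diet. Nampt, the rate-limiting enzyme of the nicotinamide salvage route, was 39.99 CPM in WT-ND, 54.29 CPM in WT-HFD, 55.37 CPM in SP-ND and 65.89 CPM in SP-HFD in early cells, so that it was highest in SP-HFD and lowest in WT-ND. The order was the same in late cells, at 46.4, 56.49, 62.03 and 71.19 CPM, and in both segments the intervals of WT-HFD and SP-ND overlapped. Nmnat1, the nuclear adenylyltransferase, ranged only from 13.24 to 16.35 CPM over the 8 groups, and each diet ratio had an interval that held 0. Nadsyn1, which amidates the nicotinate dinucleotide to NAD, was lowest in SP-ND, at 8.942 CPM in early and 6.626 CPM in late cells, against 12.34 to 15.89 CPM in the other libraries. These counts were small, with 36 UMIs in late SP-ND cells. In SP, Nadsyn1 was 1.5-fold higher on HFD in early cells (log2 0.58, interval 0.10 to 1.07). In late SP cells it was 2.4-fold higher (1.26, 0.61 to 1.93), and both WT intervals held 0. Aadat was 1.33-fold higher on HFD in early SP cells and 1.6-fold in late SP cells. In WT its HFD over ND folds were 0.997 in early and 1.13 in late cells.

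Between genotypes, no member of at least 20 CPM was past 1.5-fold in early cells on either diet, where 2.66% of all genes were higher and 1.83% lower in SP-ND, and 0.877% and 0.492% in SP-HFD. On HFD, the SP over WT log2 ratios in early cells lay between -0.30 and 0.28, and 9 of the 10 intervals held 0, the exception being Nampt at 0.28 (0.08 to 0.48). In late cells on HFD, the Nampt interval again lay above 0, at 0.33 (0.07 to 0.59). Acmsd differed most beyond counting error there, at 2.07-fold lower in SP-HFD than in WT-HFD (log2 -1.05, interval -1.64 to -0.49, on 34 and 120 UMIs). It was the 1 member of at least 20 CPM past 1.5-fold, beside 0.551% of all genes, while none was past it in the higher direction (3.75%). With all proximal tubule cells joined, this Acmsd ratio was -0.36, and with the unnamed cluster added it was -0.04. On ND, Aadat was lower in SP-ND, by 1.44-fold in early and 1.54-fold in late cells (2.25% of all genes were at least 1.5-fold lower in late cells), and Haao was at 0.707 of its WT-ND level in early cells. Kynu and Nadsyn1, both under 20 CPM, were 2.08-fold higher and 1.68-fold lower in early SP-ND cells.

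Along the tubule, Aadat and Haao had higher levels in late than in early cells in all 4 libraries, with every interval above 0. Acmsd and Kynu had lower levels in all 4, but intervals held 0 for Acmsd in WT-HFD and for Kynu in WT-HFD and SP-HFD. Aadat, the aminotransferase that turns kynurenine into kynurenic acid, was read at 69.09 CPM in early and 113.7 CPM in late cells of WT-ND, and its late level was 1.65-, 1.86-, 1.54- and 1.86-fold higher in the 4 libraries in order. Among members of at least 20 CPM, it was the only one past 1.5-fold in every library. Of all genes, 4.04%, 3.63%, 3.16% and 5.56% were higher in late cells in library order. Haao also passed it in SP-ND. In the lower direction, Acmsd was past it in SP-ND and SP-HFD, beside 5.56% and 5.96% of all genes. No member of at least 20 CPM was in WT-ND or WT-HFD (6.91% and 7.49%). Kynu, under 20 CPM, was lower in late cells by 2.37-, 2.03-, 1.67- and 2.89-fold in library order. Haao was 1.42-, 1.25-, 1.59- and 1.41-fold higher in late cells, and Acmsd 1.3-, 1.18-, 1.56- and 2.23-fold lower. Qprt and Nampt were also higher in late cells in all 4 libraries, by 1.32- and 1.16-fold in WT-ND. Their intervals held 0 in the other 3 libraries.

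Some measured features moved with diet in the same cells. The 8 late-segment markers summed to 564, 761.8, 318.8 and 822.9 CPM in early cells of the 4 libraries, higher in HFD, while Slc7a13 among them, which with Slc5a12 set the segments, went the other way (138.8, 36.77, 87.13 and 38.69 CPM). The 10 general proximal tubule markers summed to 13670, 16490, 13120 and 17530 CPM, also higher in HFD, while Lrp2 among them was 1487, 967.8, 1334 and 902.2 CPM. The 5 connecting tubule markers, all detected, summed to 133.8 and 181.1 CPM in early cells of the ND libraries and 83.21 and 99.79 CPM in those of the HFD libraries, against 24960 to 55210 CPM in connecting tubule-like cells. Depth differed as well, with a median of 8114.5 UMIs per early cell in WT-ND and 12942 to 14854 in the other libraries. The part of these features in the members' differences was not tested. Within cells thinned to 1000 UMIs, the share of early cells with an Acmsd UMI was 9.98% in WT-ND (Clopper-Pearson interval 8.43 to 11.7) and 12.7% in SP-ND (10.1 to 15.6), but 1.91% in WT-HFD (0.959 to 3.4) and 3.38% in SP-HFD (1.81 to 5.7). In library order the unthinned shares were 48.6%, 26.4%, 64.6% and 24.4%. In T or NK-like cells, which should lack the gene, the thinned share was 2.97%, 0.435%, 0.794% and 0%, at median depths of 1452 to 2581 UMIs. The count of 0 was of 231 cells, which allows a share of up to 1.3% taken as 3 counts of the total (the Clopper-Pearson upper bound is 1.58%).

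Sub-clusters within the proximal tubule also differed in the members. An early sub-cluster of 295 cells was led by Ccl2, Ptgds, Ubd, Vcam1, Sparc, Crip1, Cryab, Cp, C3 and D630011A20Rik. Its Lrp2 was 629 CPM, against 684 to 2250 CPM in the other proximal tubule sub-clusters. The part of cell identity in its levels was not tested. It had Haao at 3.53 CPM in WT-ND, against 34.65 CPM in the other early cells of that library. In WT-HFD, Haao was at 18.79 against 63.15 CPM. Afmid, Kmo and Aadat were lower there too in each of the 4 libraries, with every interval below 0. Nadsyn1 was also lower in each, on 1 to 11 UMIs, with an interval below 0 in SP-ND only. Nampt and Nmnat1 differed by at most 0.29 on the log2 scale. Acmsd in it was lower than in other early cells in WT-ND and SP-ND, had an interval holding 0 in SP-HFD, and was higher in WT-HFD, at 46.35 against 25.75 CPM. The late sub-cluster with 54 of 80 cells in SP-HFD had 202.9 CPM of Aadat, 121.2 CPM of Nampt and 7.903 CPM of Afmid. Without it, the diet ratios in late SP cells were -2.89 for Acmsd and 0.75 for Aadat, against -2.82 and 0.68 with it. These sub-clusters were chosen for description after their values had been seen.

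Cells found mostly in WT-HFD were examined on their own. The sub-cluster with 352 of 373 cells in WT-HFD had 707 CPM of Umod, a thick ascending limb marker. The other proximal tubule sub-clusters had 63.8 to 193 CPM of Umod. The WT-HFD sub-cluster was led by Xcl1, Ccl1, Fabp4, Ccl4, Igkc, Jchain, H2-Eb1, Ctla2a, Ly6c1 and Pvalb, at a median of 3984 UMIs. Of these, Jchain was among the markers of B or plasma cells and Pvalb among those of the distal convoluted tubule. In the 352 WT-HFD cells of the sub-cluster without a segment, Acmsd was 17.14 CPM, Qprt 26.67 CPM, Haao 55.24 CPM and Afmid 83.18 CPM. The last pair lay between the ND and the HFD levels of early and late cells. In the 1044 WT-HFD cells of the unnamed cluster, the corresponding levels were 10.54, 13.83, 35.72 and 53.18 CPM, and Nampt was 86.06 CPM. Acmsd, Qprt and Afmid were thus below their level in early and late cells of every library, although Acmsd lay close to its 11.26 CPM in late SP-HFD cells, and Haao was within its ND range. Log2 diet ratios in WT with these cells added to all proximal tubule cells were -2.17 (Acmsd), -1.03 (Qprt), 0.29 (Afmid) and 0.54 (Haao). The difference thus widened for the first pair and narrowed for the second. In the unnamed cluster the general proximal tubule markers had a mean log2 ratio of 0.25 over all other cells. It was 2.97 in the largest proximal tubule cluster. The part of cell identity in these shifts was not tested.

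Outside the proximal tubule the members differed in how far they stood above the level that free RNA gives. Free RNA was gauged by 14 abundant proximal tubule genes, whose summed level in other classes was 1.51% to 27% of that in proximal tubule cells of the same library. Acmsd and Qprt were above it in all 4 libraries of no class, and Aadat was above it in 3 of 4 libraries of thin limb and inner medulla-like cells (5.298 to 17.07 CPM), as the heat map of levels by class shows. Macrophage, monocyte or dendritic-like cells were above that gauge for Kmo, Kynu and Haao in 4 of 4 libraries. Haao there was 15.78 CPM in WT-ND, 15.94 CPM in WT-HFD, 32.09 CPM in SP-ND and 15.47 CPM in SP-HFD, or 3.27 to 19.1 times what free RNA would give. The SP-ND value was above the 22.47 CPM of early and below the 35.71 CPM of late proximal tubule cells in that library. Kynu in macrophage, monocyte or dendritic-like cells was 7.892, 5.796, 5.911 and 2.865 CPM, on 5 to 8 UMIs per library. This was above the Kynu level in early and late proximal tubule cells of both HFD libraries and of WT-ND (6.503 and 2.742 CPM). In SP-ND it was below their 13.53 and 8.099 CPM. Nmnat1 lay above the gauge in 4 of 4 libraries in 11 classes and was read at 15.05 to 15.61 CPM in connecting tubule-like cells, much as in the proximal tubule. By the same count Nampt was above it in 12 classes, Nadsyn1 in 6 and Afmid in 3. Kynu was also above it in 4 of 4 libraries in thick ascending limb-like cells, at 0.4488 to 1.241 CPM.

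**Figure D3:**
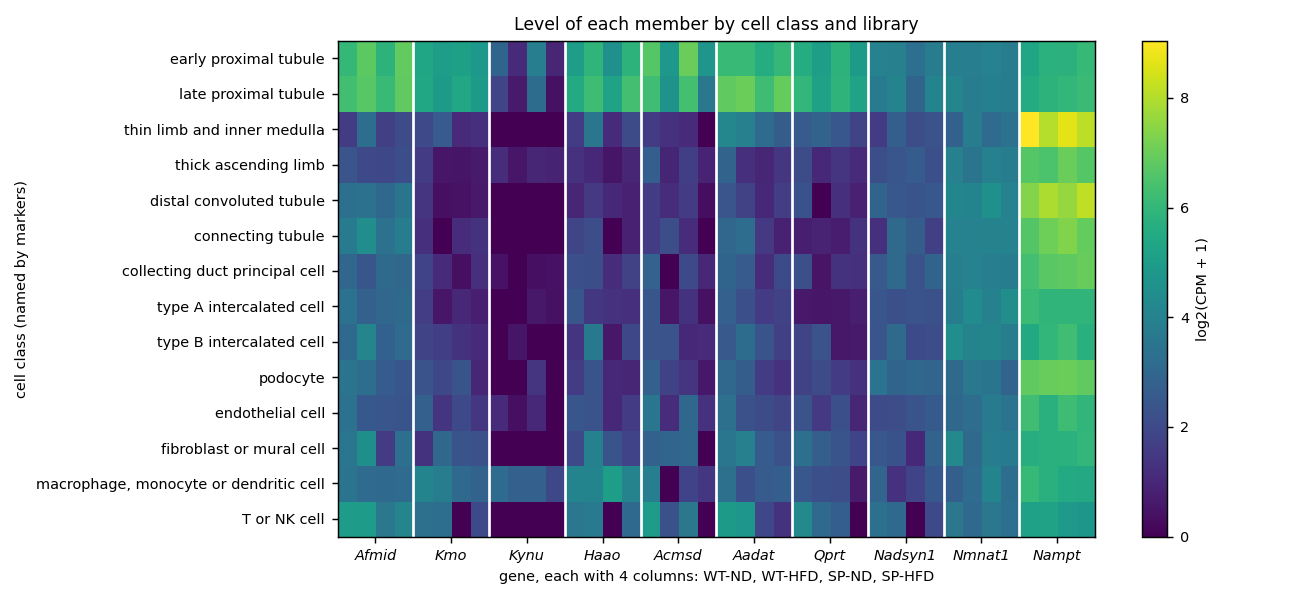
Level of each member, log2(CPM + 1) by color, with cell classes in rows and 4 columns per gene for the libraries in the order given in the text; colors are to be compared within a gene. Within each library, Acmsd, Qprt, Aadat and Afmid are brightest in the 2 proximal tubule rows. Haao is too, except in SP-ND, where the macrophage, monocyte or dendritic-like row exceeds the early row. Nmnat1 has no such contrast, and Nampt is brightest in thin limb and distal convoluted tubule rows.

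Nampt had its highest levels outside the proximal tubule. Thin limb and inner medulla-like cells had 527.1 CPM in WT-ND, 261.7 CPM in WT-HFD, 403.8 CPM in SP-ND and 280.1 CPM in SP-HFD, so that both HFD libraries lay below both ND libraries (log2 ratio -1.01, interval -1.21 to -0.82 in WT, and -0.53, -0.73 to -0.32 in SP). Distal convoluted tubule-like cells had 162.1, 245.4, 192.7 and 288.7 CPM, with both HFD libraries above both ND libraries (0.60, 0.44 to 0.76 in WT, and 0.58, 0.43 to 0.73 in SP). Podocyte-like cells were even, at 113.1 to 126.8 CPM. The order from highest was thin limb and inner medulla-like, then distal convoluted tubule-like cells in the ND libraries, but in both HFD libraries the intervals of these 2 classes overlapped. The plot of Nampt by class shows the opposite diet directions of pooled level in these 2 classes. After thinning, the share of thin limb and inner medulla-like cells with a Nampt UMI was not lower in SP-HFD than in SP-ND. It was 20.9% in SP-ND (Clopper-Pearson interval 13.9 to 29.4) and 24.6% in SP-HFD (18.7 to 31.3). In WT it was 27.5% in WT-ND (20.3 to 35.8) and 19.4% in WT-HFD (13.8 to 26.1). The intervals of ND and HFD overlapped in each genotype. Unthinned shares were 62.0%, 51.1%, 65.5% and 67.5% in library order. By the free RNA gauge, thin limb and inner medulla-like cells of WT-HFD held more proximal tubule RNA. It was 10.9% there, against 2.07% to 4.95% in the other libraries, and its part in the Nampt ratio was not tested.

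**Figure D4:**
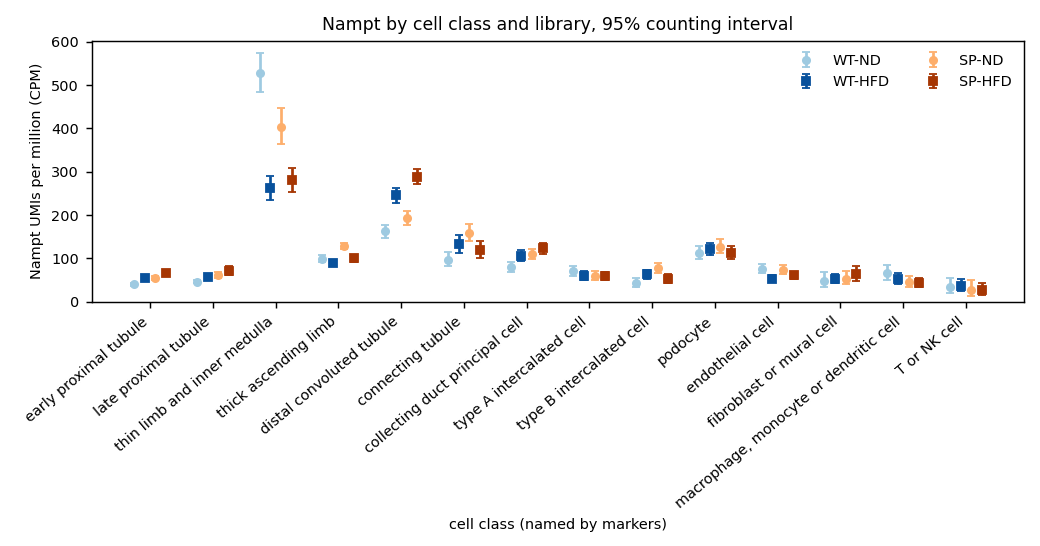
Nampt level in CPM (linear axis from 0) by cell class; each point is 1 library, circles are ND and squares HFD, and bars are exact Poisson 95% counting intervals. The HFD libraries are below the ND libraries in thin limb and inner medulla-like cells and above them in distal convoluted tubule-like cells.

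The genes around the members were taken from 7 lists of 45 further genes of the pathway, its transport, NAD use and proximal tubule regulation. In early cells, 23 of the 45 had at least 20 CPM in the diet comparisons, and 4 were at least 1.5-fold higher and 1 lower in HFD, in each genotype (of all genes, 6.56% higher and 4.16% lower in WT, and 6.99% and 7.58% in SP). In late cells, 2 of 21 were higher and 0 lower in WT (4.81% and 5.08% of all genes), and 5 of 23 were higher and 2 lower in SP (9.73% and 7.46%). The entry enzymes Tdo2 and Ido1 had no UMI in early or late proximal tubule cells of any library, and Ido2 reached at most 4.535 CPM. Kyat1, another kynurenine aminotransferase, was 30.48, 44.94, 17.2 and 42.33 CPM in early cells of the 4 libraries, higher in HFD by 0.56 (WT) and 1.30 (SP) on the log2 scale. Cyp2e1, an oxidase of the smooth endoplasmic reticulum, was higher in HFD by 0.78 and 2.03. Of the 12 NAD consumers 3 had at least 20 CPM, and the mitochondrial deacylase Sirt3 was higher in HFD by 0.64 in WT and 0.34 in SP. Slc5a8, a carrier of nicotinate and other monocarboxylates, was higher by 1.01 and 0.81, and the amino acid exchanger Slc7a8 lower, with log2 ratios of -0.60 and -0.87. Among the 7 regulators, the fatty acid receptor Ppara was higher in HFD in both genotypes (34.14 and 30.27 CPM on ND, 56.87 and 56.89 CPM on HFD), while Hnf4a had log2 ratios of -0.22 and 0.08. The transcription factor Maf was lower, with ratios of -0.32 and -0.55.

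Similarity of pattern was taken as Pearson's r of log2(CPM + 1) over 65 groups, each a cell class in 1 library, among 11532 genes. These groups share libraries and cell type differences, so r is a description only. Acmsd was most like Rdh16f2 (r = 0.936), Defb19 (0.895) and the endocytic receptor Cubn (0.893). Aadat was most like Cyp2j13 (0.949), Khk, the fructose kinase (0.93), and Glyat (0.929), and Qprt like AI314278 (0.939), Erich4 (0.93) and 4931406C07Rik (0.926). Afmid was most like Aspdh (0.874), Cckar (0.87) and Hsd3b3 (0.867), Kmo like F13b (0.875), Slc22a22 (0.872) and Slc5a11 (0.866), and Haao like Ugt1a7c (0.837), Napsa (0.827) and Slc5a10 (0.825). Nampt had the lowest values of the 7 genes compared, with Ncoa4 at 0.781, Pacsin2 at 0.775 and Ccni at 0.77.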

How the data were processed

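The deposited files hold raw UMI counts per gene and barcode for 4 libraries, 1 per condition. The authors made these counts with Cell Ranger, given as version 2.1.1 with build mm10 in the submitters' processing notes and as 6.1.2 in the file headers, and deposited them without normalization. Cells with 200 to 5000 genes and under 50% mitochondrial UMIs were kept, and the top-scoring 0.8% of simulated-neighbor doublet scores per 1000 cells were removed. No correction for free RNA was made. Cells were integrated by CCA and clustered with R 4.3.3 and Seurat 5.3.0, with the pathway genes left out of the clustering features, and clusters were named "X-like" from marker lists. Cutoffs for names were set after the clusters were seen. Early cells are sub-clusters with Slc5a12 above and Slc7a13 below other proximal tubule cells, and late cells the reverse. A low-depth or mixed cluster stayed unnamed.

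Counts were pooled per class and library and given as CPM with exact Poisson intervals. Log2 ratios carry conditional binomial intervals, also exact. Shares were taken after thinning each cell to 1000 UMIs, with Clopper-Pearson intervals. Genes at 0 in 1 library were set to 3 counts where all genes were ranked or counted. With 1 library per condition no test was run. The members and all lists were chosen with earlier results of these data known. Named genes are the 10 members, genes of the pathway lists and, for each member with at least 20 CPM, the 3 genes with the highest r. The intervals were computed on simulated Poisson counts drawn from observed means. For WT-HFD against WT-ND in early cells, 95.4% of ratio intervals over 4408 genes held the true value. These draws had no variation between cells or mice beyond counting error, so they check the calculation only. Promoters are from RefSeq (GRCm38.p6) and positions from GENCODE vM21. Not every member's start region is reported here. Python 3.11.15, numpy 2.4.6, scipy 1.17.1 and pandas 2.3.3 were used.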

Additional observations from a re-analysis of the deposited data

Results flagged for a closer look

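Nampt had diet ratios of opposite sign in the 2 genotypes in 2 classes of distal epithelium. In connecting tubule-like cells the HFD library was higher than the ND library in WT, with a log2 ratio of 0.4469 (interval 0.11 to 0.79), and lower in SP, with -0.4087 (-0.70 to -0.12). The 4 levels were 97.11 CPM in WT-ND, 132.4 CPM in WT-HFD, 158.5 CPM in SP-ND and 119.4 CPM in SP-HFD. In type B intercalated-like cells the ratios were 0.5153 (0.12 to 0.92) in WT and -0.5435 (-0.93 to -0.16) in SP. The WT-HFD cells of both classes held more proximal tubule RNA by the free RNA gauge. It was 7.47% in connecting tubule-like and 13.4% in type B intercalated-like cells, against at most 3.63% and 4.12% in the other libraries. Connecting tubule markers summed to 24960 CPM in WT-HFD connecting tubule-like cells, against 39790 to 55210 CPM in the other libraries. Each ratio compares 1 library with 1 library. Neither the part of these features nor the difference between genotypes was tested.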

How the results depend on the processing

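No paired analysis was possible because the labels carry no replicate numbers and each group has 1 library. There were 9 planned settings and 4 chosen after seeing the data. The latter left out the late sub-cluster mostly of SP-HFD or the early one led by genes including Ubd. They also joined all proximal tubule cells, without or with the unnamed cluster. None of the 12 median log2 ratios of the members then moved by more than the typical width either side of a member's counting interval. In the diet comparisons members moved both ways, so their medians stayed near 0 and this measure says little about single members. Over the 52 diet ratios per gene (14 settings, main included), Acmsd (-3.18 to -1.70), Kynu and Qprt stayed below 0 in 52 of 52, and Afmid, Haao and Nampt above 0 in 52 of 52. The 2 joined settings have no segments, so each of their ratios was entered under both early and late, here and in the counts of single members below. All settings reuse the same 4 libraries, so their ratios are not independent. Kmo was below 0 in 51, the other being late SP cells averaged cell by cell (0.17 against -0.52). Scaling to non-mitochondrial UMIs moved the median log2 ratio of all genes by over 0.1 in late cells for HFD over ND in SP (0.03 to -0.12) and SP over WT on ND (0.05 to 0.18). With 50 CPM and 2-fold as the limit, member counts changed most, and 5 or 6 members reached 50 CPM in the diet comparisons. Higher in HFD were 0 in early WT (against 2), 0 in late WT (against 1) and 1 in late SP (against 3). Of all genes, 1.65%, 1.4% and 4.45% were higher in these comparisons. Lower in HFD were 1 in early SP, late WT and late SP (against 2 each), beside 2.62%, 1.54% and 2.25% of all genes. On that limit 0 members were lower in SP than in WT in late cells on either diet (against 1 each). Of all genes, 1.01% were lower on ND and 0.0463% on HFD. Between segments 0 members were past it (against 1 or 2 higher in late cells in each library, and 1 lower in SP-ND and SP-HFD). Of all genes, 2.27%, 2.14%, 1.49% and 2.5% were higher in late cells in library order, and 1.88% lower in SP-ND and in SP-HFD. Of the ratios of single members, 908 stayed within their counting interval, 52 left it, and 0 of those at least 1.5-fold reversed. Depth limits Kynu, Nadsyn1 and Nmnat1 most.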
